A study of Mus musculus with 6 samples.

Results

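The genes described here are 38 genes of glucose breakdown and of the response to low oxygen, taken by name from the gene column of the authors' deposited table. That table has 52535 rows, and 37 of the 38 names had a row. It compares Npm1 siRNA with control siRNA in E14 cells, a wild-type line of mouse embryonic stem cells grown in N2B27 medium with LIF/2i, a cytokine and a pair of kinase inhibitors. Polyadenylated RNA was sequenced 3 days after transfection from 3 samples that received Npm1 siRNA and 3 that received control siRNA, 6 in all. No oxygen level is given in the labels for either group. An siRNA lowers a transcript without removing the gene, and 1 cell line is 1 genetic background. Separate cultures are not stated in the labels, so the p-values speak only to the spread among these 6 libraries, part of which may be technical. In bulk RNA, fewer cells of a type and less RNA per cell cannot be told apart.

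Glycolysis splits glucose into pyruvate in the cytosol. Pyruvate then either enters mitochondria or is reduced to lactate, which leaves the cell through monocarboxylate carriers. When oxygen is short, the prolyl hydroxylases that mark hypoxia-inducible factor (HIF) alpha subunits for destruction slow down, and HIF raises the transcription of many glycolytic genes and of genes for blood vessel growth, collagen modification and pH control. Naive embryonic stem cells use both glycolysis and respiration, and Hif1a and Epas1 encode the alpha subunits HIF-1 alpha and HIF-2 alpha.

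The mean normalized count is a gene's read count after scaling for library size, averaged over all 6 libraries. Fold changes are log2 ratios of Npm1 siRNA over control siRNA, intervals are 95% intervals from the standard error implied by each deposited p, and adjusted p-values are those p-values after Benjamini-Hochberg adjustment over 14284 genes with a mean of at least 10. Genes with an adjusted p under 0.05 are called higher or lower. Npm1, the gene targeted, stood at 45.3% of its control level by the authors' deposited table (adjusted p = 5.35e-49), a value derived as 84458 normalized counts with Npm1 siRNA against 186392 with control siRNA. The direction of the ratios was read from Npm1, so this is no separate check of the labels. All 8 embryonic stem cell markers examined, Pou5f1, Sox2, Nanog, Zfp42, Esrrb, Klf4, Tfcp2l1 and Dppa5a, had means between 3740 and 23793 in the authors' deposited table, and 0 of them were called. Of 8 fibroblast markers, Dcn and Postn were at 0, the highest mean was 44.3 in the authors' deposited table, and the summed level was 76.3 with Npm1 siRNA and 96.7 with control siRNA. The means of the members came to 1.21% of the sum over all genes in the authors' deposited table.

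Both lactate dehydrogenases, Ldha and Ldhb, the lactate carrier Slc16a1 and the hexokinase Hk1 were called lower after Npm1 siRNA. The enzymes that turn glucose phosphate into pyruvate gave no call. Among genes of the hypoxia response, Vegfa and P4ha1 were called lower and Epas1 and Ndrg1 higher, and the other tested members of this group were not called. Of 35 members tested, 8 (22.9%) were called, 2 higher and 6 lower, beside 4.30% of all tested genes (2.23% higher and 2.07% lower). The members and their roles were chosen with earlier results of these data known. This share, and its split by role, is therefore a description and no test of enrichment. Many members are abundant, and abundant genes were called more often. Among the 29 members with a mean of at least 400, 8 (27.6%) were called, beside 6.60% of all genes at such means, and the 6 called lower stood beside 2.83%. This cut was not planned beforehand, and the lowest called member, Ndrg1, lies just above it at 455. It does not match abundance either: above it the median mean was 4847 for members and 1482 for all genes. The deposited p itself, before adjustment, was under 0.05 for 10 of the 35 members and for 16.3% of all tested genes. Against a fold of 1.2 in place of no change, 0 members were called, and under the stricter Benjamini-Yekutieli adjustment 3 were: Epas1, Vegfa and Slc16a1. The median log2 fold change of the members was -0.04, with 13 positive and 22 negative, and the median of all tested genes was 0.0019.

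**Figure D1:**
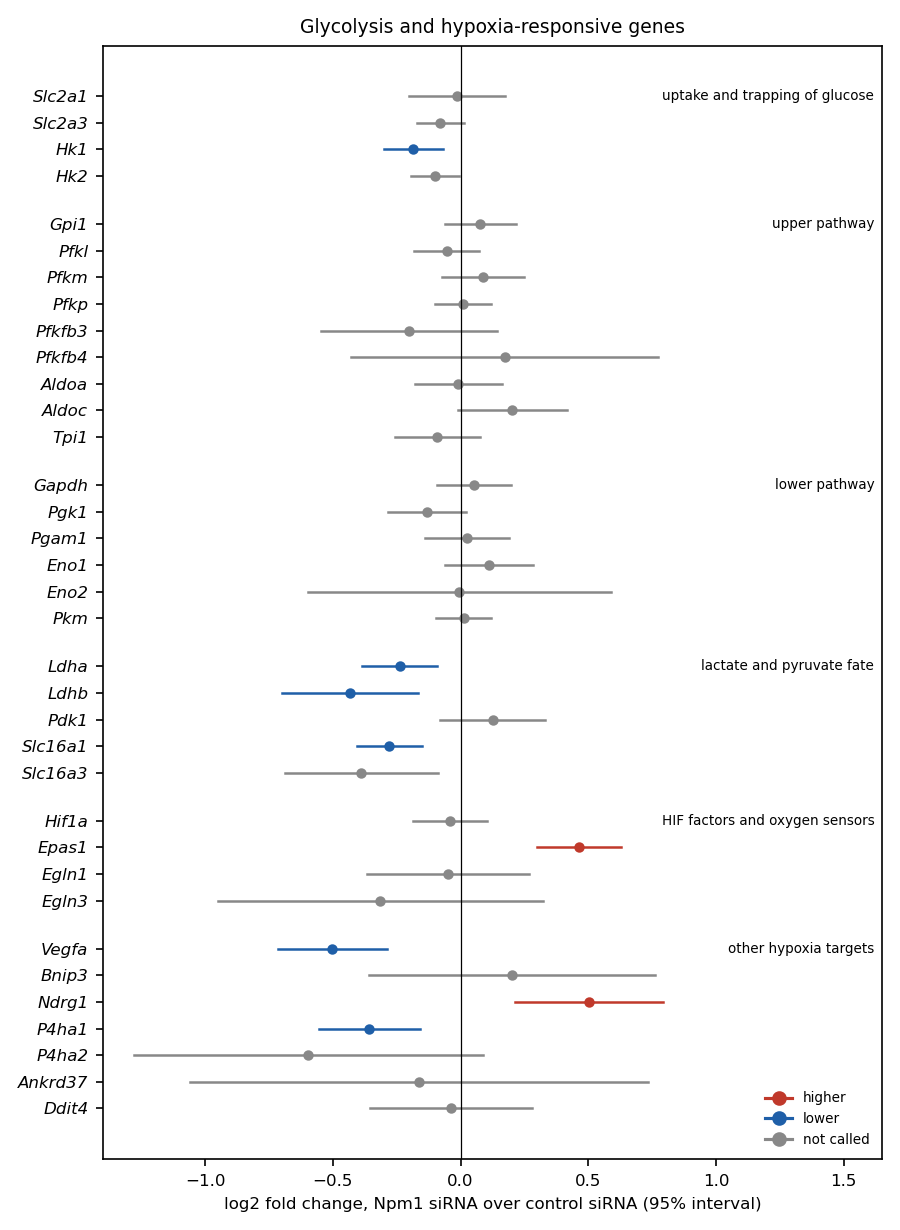
Log2 fold change of each of the 35 tested members (points), Npm1 siRNA over control siRNA, with its 95% interval (lines), grouped by role in the pathway. Red marks the 2 members called higher, blue the 6 called lower and grey those not called. The blue points lie at the uptake and lactate steps and among the hypoxia targets, and the 15 enzymes in between are grey.

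The plot of fold changes by role gives the calls step by step. Of the 4 tested genes of glucose uptake and trapping, 1 was lower; of 9 of the upper pathway and 6 of the lower pathway, 0 were called; and of 5 that handle lactate and pyruvate, 3 were lower.

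The lactate dehydrogenases interconvert pyruvate and lactate, and the enzyme is a tetramer of A and B subunits. In the authors' deposited table, Ldhb, the gene of the B subunit (chromosome 6, 142490249 to 142507957, GRCm38), was at 74.1% of control (log2 -0.43, 95% interval -0.70 to -0.17, adjusted p = 0.0392). In the authors' deposited table, Ldha, the gene of the A subunit (chromosome 7, 46841475 to 46855627), was at 84.8% (log2 -0.24, 95% interval -0.38 to -0.09, adjusted p = 0.0360). From the pooled mean and the fold change, the derived level of Ldhb was 24952 normalized counts with Npm1 siRNA and 33678 with control siRNA. The same derivation gave 17631 with Npm1 siRNA and 20798 with control siRNA for Ldha. Added together, the 2 genes came to 42583 normalized counts after Npm1 siRNA and 54476 after control siRNA. Per kilobase of joined exons Ldhb was the more abundant of the 2 in both groups, at 74.9% of their summed level with Npm1 siRNA and 77.3% with control siRNA; whether that share differed was not tested. Both calls lay near the threshold. With no filter on low means the adjusted p was 0.0631 for Ldha and 0.0687 for Ldhb, and after a smooth trend over GC content and transcript length was taken off it was 0.138 and 0.0829, with log2 fold changes of -0.19 for Ldha and -0.39 for Ldhb.

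Slc16a1 (MCT1) and Slc16a3 (MCT4) are carriers that move lactate and pyruvate with a proton across the plasma membrane. For members with a mean up to 5000, the read count of each library could be worked out from the 15 digits of the deposited mean, and 20 of 23 members tried met the criteria for a single solution. The libraries are called a, b and c within each group, letters that cannot be tied to the samples' replicate numbers. The normalized counts of Slc16a1 (chromosome 3, 104638668 to 104658462) were 3840, 3469 and 3622 with Npm1 siRNA, against 4425, 4347 and 4483 with control siRNA. Every Npm1 siRNA library lay below every control library, by more than the range within either group. By the authors' deposited table Slc16a1 was at 82.5% of control (log2 -0.28, 95% interval -0.40 to -0.15, adjusted p = 0.0014), and its ratio stayed between -0.32 and -0.24 when each library was left out in turn. Slc16a3 had 364, 506 and 483 normalized counts with Npm1 siRNA, against 636, 525 and 611 with control siRNA. Its groups did not overlap, but the highest Npm1 siRNA library came close to the lowest control library. The ratio of Slc16a3 by the authors' deposited table (log2 -0.39, 95% interval -0.69 to -0.09, adjusted p = 0.136) did not pass, and it was -0.26 without library a of Npm1 siRNA. Bsg, which encodes the chaperone that brings these carriers to the membrane, had a deposited log2 fold change of -0.06 (the authors' deposited table; adjusted p = 0.763).

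The promoters of the 3 called genes are shown because they differ in the letters that HIF binds. Each is the 250 bases before the gene's first start in the RefSeq table for GRCm38.p6, read in the direction of the gene. Capitals mark ACGTG or GCGTG, the core of the HIF binding site, on either strand (on the opposite strand these read CACGT and CACGC). The E-box bound by Myc and other factors, CACGTG, holds ACGTG on both strands.
Ldha, chr7:46845554-46845803, plus strand: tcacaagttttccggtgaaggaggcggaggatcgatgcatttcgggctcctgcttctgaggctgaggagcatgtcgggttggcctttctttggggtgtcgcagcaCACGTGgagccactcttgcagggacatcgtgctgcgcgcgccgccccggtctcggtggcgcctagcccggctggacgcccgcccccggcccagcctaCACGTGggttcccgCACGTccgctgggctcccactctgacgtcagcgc
Ldhb, chr6:142507958-142508207, minus strand: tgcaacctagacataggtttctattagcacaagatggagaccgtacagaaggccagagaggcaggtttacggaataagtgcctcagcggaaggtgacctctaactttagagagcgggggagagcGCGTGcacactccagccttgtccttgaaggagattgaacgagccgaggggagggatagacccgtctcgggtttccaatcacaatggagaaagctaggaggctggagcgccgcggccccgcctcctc
Slc16a1, chr3:104638414-104638663, plus strand: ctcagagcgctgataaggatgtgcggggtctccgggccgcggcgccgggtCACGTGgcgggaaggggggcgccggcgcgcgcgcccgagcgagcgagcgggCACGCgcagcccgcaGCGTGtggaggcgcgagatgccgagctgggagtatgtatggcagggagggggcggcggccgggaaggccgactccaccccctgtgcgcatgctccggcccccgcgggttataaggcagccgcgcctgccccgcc
Counting also the 50 bases after the start, and each CACGTG once per strand, the Ldha window had 7 matches, 5 of them ACGTG, the Slc16a1 window 5, and the Ldhb window 1. Of these 3, Ldha and Slc16a1 held the E-box and Ldhb did not. Of the 35 members with a window in the table, 28 (80%) had at least 1 match of ACGTG or GCGTG in the first window, beside 63.4% of tested genes and 43.8% of all genes with windows of the same length. ACGTG alone was present in 21 of 35 (60%), beside 25.8% of tested genes and 19.6% of all genes, and CACGTG in 5 of 35, beside 10.4% and 7.24%. Among members, the letters were present in the first window of 4 of 6 called genes with a window and 21 of 26 tested genes not called. The called genes without them there were Hk1 and Vegfa, whose second windows had 5 and 2 matches. Aldoa and Pkm, not called, also had none in the first window and had matches in the second. These letters are a description of the windows and say nothing of binding.

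Pdk1 encodes a kinase that switches off pyruvate dehydrogenase and thereby keeps pyruvate out of the citric acid cycle. Its normalized counts were 1382, 1159 and 1371 with Npm1 siRNA, against 1210, 1088 and 1289 with control siRNA, and the groups overlapped. Pdk1 had a log2 fold change of 0.13 in the authors' deposited table (95% interval -0.08 to 0.33, adjusted p = 0.626), and its ratio was 0.06 without library b of control siRNA and 0.20 without library b of Npm1 siRNA. Of 14 tested genes for the entry of pyruvate into mitochondria, 2 (14.3%) were called, Pdp2 higher and Pdk3 lower, beside 4.30% of all tested genes and 6.60% of those with a mean of at least 400. Pdk3, another kinase of the same family, had 1033, 956 and 1019 normalized counts with Npm1 siRNA, against 1381, 1242 and 1489 with control siRNA. The authors' deposited table put it at 73.2% of control (log2 -0.45, adjusted p = 6.27e-04). Pdp2, the catalytic subunit of a phosphatase that removes the phosphate these kinases add, had 2165, 2065 and 2146 with Npm1 siRNA, against 1782, 1722 and 1792 with control siRNA. Its log2 fold change was 0.27 in the authors' deposited table (95% interval 0.12 to 0.41, adjusted p = 0.0145). In neither gene did the groups overlap. Pdha1, the alpha subunit of the dehydrogenase itself, came nearest to the threshold among the others, with a deposited log2 fold change of 0.17 (adjusted p = 0.0608, from the authors' deposited table). The kinase Pdk4 was at 0.57 with a wide interval in the authors' deposited table (0.03 to 1.11, adjusted p = 0.272), and Pdk2 at 0.02.

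**Figure D2:**
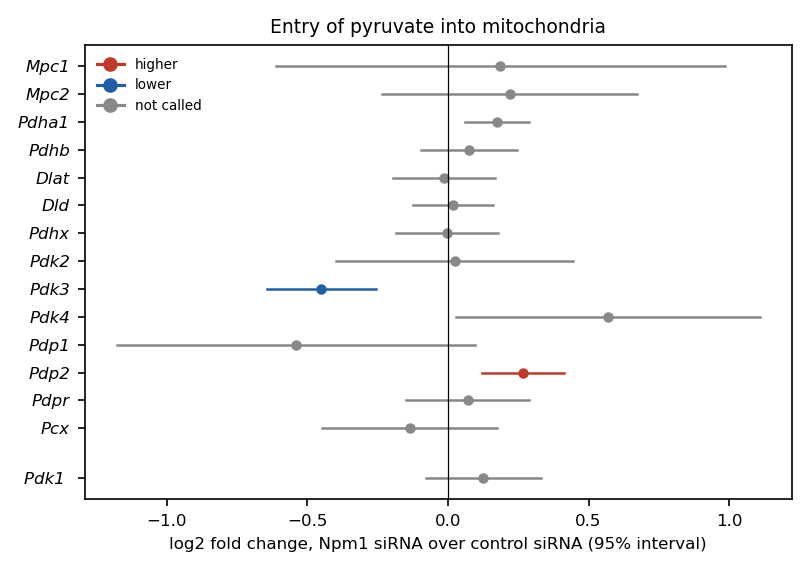
Log2 fold change of 14 genes for the entry of pyruvate into mitochondria, with the member Pdk1 at the bottom, Npm1 siRNA over control siRNA (points), with 95% intervals (lines). Pdk3 is in blue at -0.45 and Pdp2 in red at 0.27, and the other points are grey, not called.

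Glucose enters through Slc2a1 (GLUT1) and Slc2a3 (GLUT3) and is trapped in the cell by hexokinases. In the authors' deposited table, Hk1 (chromosome 10, 62268855 to 62379908) was at 88.0% of control (log2 -0.18, 95% interval -0.30 to -0.07, adjusted p = 0.0445), with derived levels of 8596 normalized counts after Npm1 siRNA and 9770 after control siRNA. The call of Hk1 was lost with no filter on low means (adjusted p = 0.0775). Hk2, a hexokinase induced by HIF, had a log2 fold change of -0.10 in the authors' deposited table (95% interval -0.19 to -0.0047, adjusted p = 0.274). All 4 genes of this step had a negative value, with Slc2a3 at -0.08 and Slc2a1 at -0.01 in the authors' deposited table (adjusted p = 0.415 and 0.976). Slc2a3 was the more abundant carrier per kilobase of exon, at 69.1% of the pair with Npm1 siRNA and 70.1% with control siRNA. Hk2 was the more abundant hexokinase per length, but by how much depended on the gene model: over all libraries Hk1 made up 32.2% of the pair per kilobase of joined exons and 46.7% per kilobase of the longest transcript.

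In the upper pathway, Gpi1, the phosphofructokinases Pfkl, Pfkm and Pfkp, the regulators Pfkfb3 and Pfkfb4, the aldolases Aldoa and Aldoc, and Tpi1 carry glucose phosphate to the 3-carbon sugars. None of these 9 was called, and 0 had an unadjusted p under 0.05, with log2 fold changes between -0.20 and 0.20 in the authors' deposited table. Aldoc, the aldolase of brain, was nearest in unadjusted p. It had 760, 778 and 797 normalized counts with Npm1 siRNA, against 707, 644 and 676 with control siRNA, groups that did not overlap. Its log2 fold change in the authors' deposited table was 0.20 (95% interval -0.01 to 0.42, adjusted p = 0.345). Pfkm had 1857, 1718 and 1925 with Npm1 siRNA, against 1759, 1741 and 1668 with control siRNA, and library b of Npm1 siRNA fell within the control range. Its log2 ratio was 0.05 without library c of Npm1 siRNA and 0.13 without library b of Npm1 siRNA. The value of Pfkm in the authors' deposited table was 0.09, while Pfkl and Pfkp stood at -0.05 and 0.01 (adjusted p = 0.672, 0.768 and 0.965). Gpi1, the isomerase, was at 0.08, Aldoa at -0.01 and Tpi1, which interconverts the 3-carbon sugars, at -0.09 in the authors' deposited table, each with an interval that includes 0. Pfkp shares 748 exon bases with Pitrm1 on the opposite strand, and whether reads were counted by strand is not given in the sources used here.

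Pfkfb3 and Pfkfb4 make and break the sugar bisphosphate that activates phosphofructokinase, and both are textbook HIF targets. Pfkfb3 had 357, 338 and 465 normalized counts with Npm1 siRNA, against 469, 357 and 507 with control siRNA (log2 -0.20 in the authors' deposited table, adjusted p = 0.656). Pfkfb4 had 97.9, 101 and 104 with Npm1 siRNA, against 98.2, 60.3 and 111 with control siRNA (log2 0.17 in the authors' deposited table, adjusted p = 0.867). Both pairs of groups overlapped, and library b of control siRNA was the lowest of its group in each. Without that library the log2 ratio of Pfkfb4 was -0.05, the opposite sign, and that of Pfkfb3 was -0.33. The ratio of Pfkfb3 was -0.35 without library c of Npm1 siRNA and -0.09 without library c of control siRNA.

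The lower pathway, which yields the ATP of glycolysis, gave 0 calls, and 0 unadjusted p-values under 0.05, among Gapdh, Pgk1, Pgam1, Eno1, Eno2 and Pkm. Pkm, pyruvate kinase, was the member with the highest mean, 94256 normalized counts, and had a log2 fold change of 0.01 in the authors' deposited table (95% interval -0.09 to 0.12). Gapdh, the dehydrogenase often used to normalize expression, was at 0.05 in the authors' deposited table (95% interval -0.09 to 0.20). Pgk1, phosphoglycerate kinase, was at -0.13 (adjusted p = 0.416), Pgam1, phosphoglycerate mutase, at 0.03, and Eno1, the main enolase, at 0.11 in the authors' deposited table (adjusted p = 0.597). Eno2, the enolase of neurons, had 121, 115 and 78.6 normalized counts with Npm1 siRNA, against 122, 118 and 75.9 with control siRNA. Its groups overlapped over nearly their whole range, and it made up 0.861% of the enolase pair per kilobase with Npm1 siRNA and 0.932% with control siRNA. Gapdh, Eno1, Pgk1 and Pgam1, among other members, can share reads with copies elsewhere in the genome. In the authors' deposited table, the means of 108 annotated genes that match part of Gapdh, most of them pseudogenes, summed to 14.8% of its own. Genes without a row added nothing to the sum. Peli2, a protein-coding gene matched over only 199 bases, had 2.46% by itself. Matches had at least 97% identity over at least 100 bases. Eno1b, 99.5% identical to Eno1 over 1736 bases, had 8.52% of the Eno1 mean. Gm5537, 100% identical to Pgk1 over 1252 bases, and Pgam1-ps2, 100% identical to Pgam1 over 765 bases, had means of 0. How reads that fit several places were counted is not given, so the means of the copies do not bound the uncertainty.

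**Figure D3:**
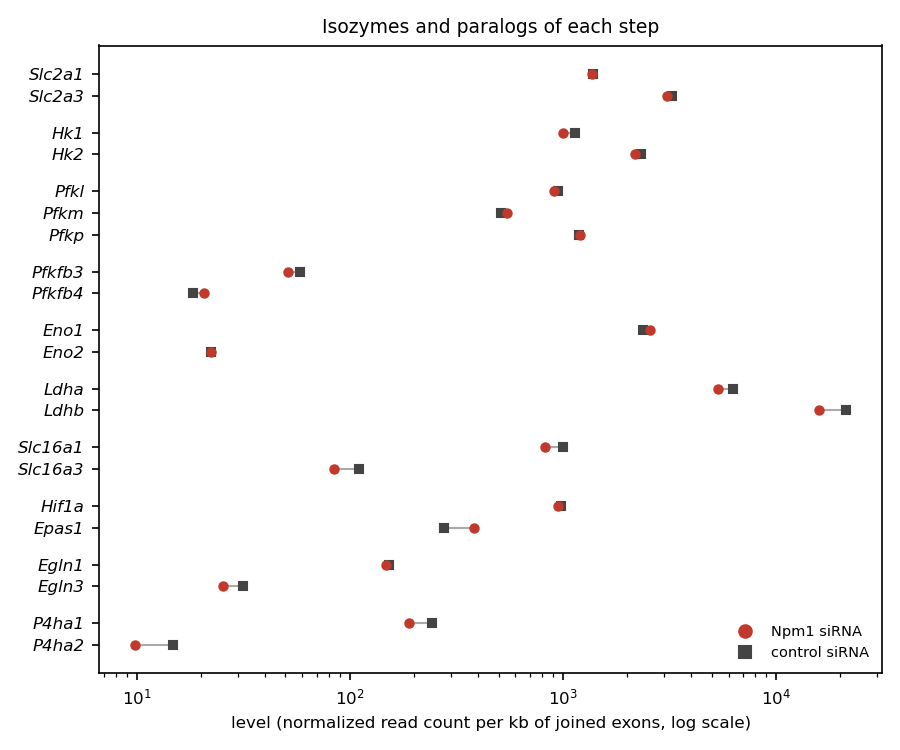
Derived levels of isozymes and paralogs, in normalized read counts per kilobase of joined exons on a log axis, with Npm1 siRNA as red circles and control siRNA as grey squares. The 2 symbols nearly coincide for the glucose carriers, phosphofructokinases and Eno2, while Ldha, Ldhb, Slc16a1, Slc16a3, P4ha1 and P4ha2 have the circle to the left and Epas1 has it to the right.

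Per kilobase of joined exons, Pkm (18847 normalized counts per kb, mean of all libraries) and Ldhb (18672) led the members, followed by Ldha (5805), Gapdh (4586) and Gpi1 (3754). The same 3 led per kilobase of the longest transcript. At the low end stood Egln3, Eno2, Pfkfb4 and P4ha2, between 28.5 and 12.3 per kb, with Adm and Car9 below them. Aldoa has no value per length here, since 2 gene models of the annotation carry that symbol. The plot of levels by isozyme gives the 2 groups side by side.

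Of the HIF factors and oxygen sensors, Epas1 was called higher and Hif1a, Egln1 and Egln3 were not called. Epas1 (HIF-2 alpha; chromosome 17, 86753700 to 86833410) had 2236, 2092 and 2090 normalized counts with Npm1 siRNA, against 1671, 1451 and 1530 with control siRNA. The lowest Npm1 siRNA library was well above the highest control library. The log2 fold change was 0.46 in the authors' deposited table, a 1.38-fold higher level (95% interval 0.30 to 0.63, adjusted p = 1.06e-05), and it stayed between 0.42 and 0.52 when each library was left out in turn. Hif1a, the more abundant subunit, was at -0.04 in the authors' deposited table (95% interval -0.18 to 0.10, adjusted p = 0.869). Per kilobase of joined exons, Epas1 accounted for 28.7% of the summed HIF alpha level with Npm1 siRNA and 22.1% with control siRNA. Egln1 (PHD2) and Egln3 (PHD3) are hydroxylases that use oxygen to mark HIF alpha, and Egln3 is itself a HIF target. Egln1 had 456, 491 and 648 normalized counts with Npm1 siRNA, against 622, 460 and 566 with control siRNA. Egln3 had 69.7, 52.5 and 80.7 with Npm1 siRNA, against 82.8, 76.1 and 93.2 with control siRNA. Both pairs of groups overlapped, and the values in the authors' deposited table were -0.05 for Egln1 and -0.31 for Egln3 (adjusted p = 0.935 and 0.721). Without library b of Npm1 siRNA the ratio of Egln3 was -0.16.

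None of 14 other genes of oxygen sensing and HIF partnership was called and 0 had an unadjusted p under 0.05, with a median log2 fold change of 0.03. The most abundant were the coactivator Ep300 and Arnt, the partner of both alpha subunits, at 0.06 and 0.02 in the authors' deposited table. Vhl, which recognises hydroxylated HIF alpha, was at -0.04 and the asparagine hydroxylase Hif1an at 0.04 in the authors' deposited table.

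**Figure D4:**
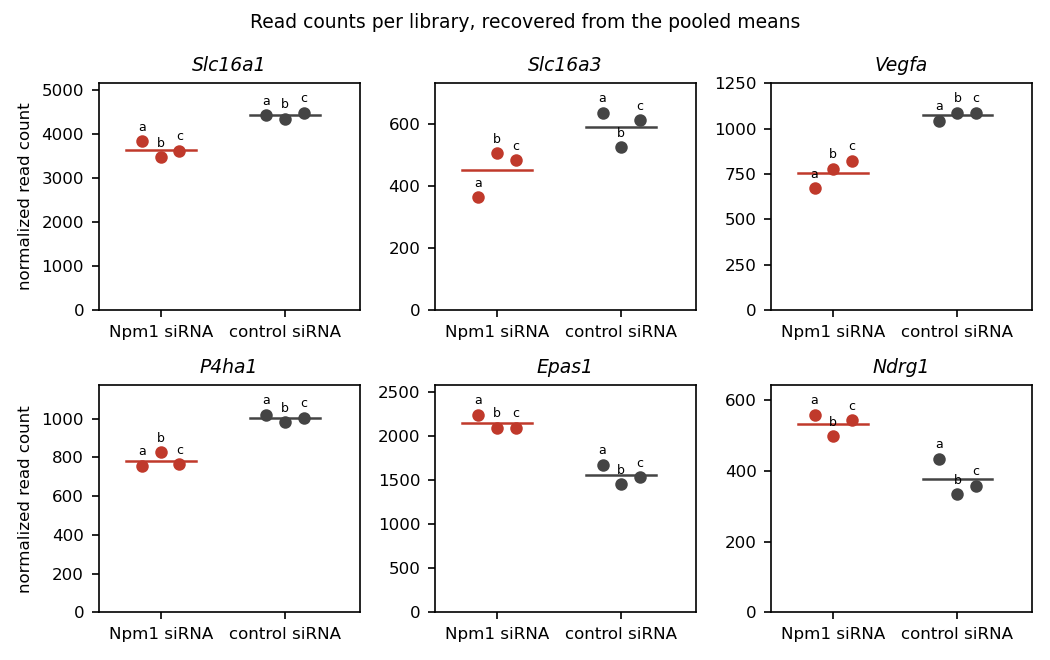
Normalized read count of 6 members in each library (points, lettered a to c within a group), with Npm1 siRNA on the left and control siRNA on the right of each panel, and the group mean as a line. The panels show the called members with recovered counts, and Slc16a3. The groups do not overlap in any of the 6, but genes called from the same libraries were chosen, so this is no separate support. How often the groups separate among all tested genes was not computed. Slc16a1, Slc16a3, Vegfa and P4ha1 have the Npm1 siRNA points lower and Epas1 and Ndrg1 have them higher. The Npm1 siRNA points of Slc16a3 come closest to the control points.

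Of the 7 other targets of hypoxia that were tested, 1 was called higher and 2 lower, beside 4.30% of all tested genes, and 4 were not called. Vegfa, the growth factor that draws blood vessels into tissue short of oxygen (chromosome 17, 46016993 to 46032369), had 671, 781 and 825 normalized counts with Npm1 siRNA, against 1045, 1088 and 1089 with control siRNA. The highest Npm1 siRNA library lay below the lowest control library, and the Npm1 siRNA libraries differed more among themselves than the control libraries did. In the authors' deposited table, Vegfa was at 70.6% of control (log2 -0.50, 95% interval -0.71 to -0.29, adjusted p = 4.89e-04). P4ha1 encodes a catalytic subunit of the prolyl hydroxylase that stabilises collagen (chromosome 10, 59323296 to 59373304). It had 757, 825 and 764 normalized counts with Npm1 siRNA, against 1019, 980 and 1006 with control siRNA, with no overlap. The authors' deposited table had P4ha1 at 78.1% of control (log2 -0.36, 95% interval -0.55 to -0.16, adjusted p = 0.0159). Its relative P4ha2 had 44.3, 65.9 and 73.4 with Npm1 siRNA, against 67.4, 91.9 and 118 with control siRNA, groups that overlapped, and did not pass (log2 -0.60 in the authors' deposited table, 95% interval -1.28 to 0.09, adjusted p = 0.411). The ratio of P4ha2 was -0.38 without library c of control siRNA and -0.78 without library a of control siRNA.

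The promoters of Vegfa and P4ha1, marked in the same way, are given because both genes were lower and yet differ in these letters.
Vegfa, chr17:46032378-46032627, minus strand: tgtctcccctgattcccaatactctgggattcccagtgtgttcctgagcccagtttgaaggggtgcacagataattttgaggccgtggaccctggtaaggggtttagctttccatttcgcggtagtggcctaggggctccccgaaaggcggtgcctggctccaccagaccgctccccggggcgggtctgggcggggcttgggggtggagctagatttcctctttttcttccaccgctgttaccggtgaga
P4ha1, chr10:59323046-59323295, plus strand: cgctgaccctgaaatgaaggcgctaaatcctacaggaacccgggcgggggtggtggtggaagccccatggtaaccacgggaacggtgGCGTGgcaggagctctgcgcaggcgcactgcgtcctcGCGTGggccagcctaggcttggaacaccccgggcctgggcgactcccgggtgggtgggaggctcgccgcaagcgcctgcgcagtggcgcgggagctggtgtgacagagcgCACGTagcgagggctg
The first window of P4ha1 had 3 matches and that of Vegfa 0. A second Vegfa window in the RefSeq table, not shown, had 2, and it lies inside the gene (chr17:46025164-46025413). The Ldha window shown above also lies inside the coordinates given for that gene, although it precedes its first start in the RefSeq table. Letters more than 250 bases before a start were not searched, so 0 matches does not mean that Vegfa lacks them further upstream.

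Ndrg1, a cytosolic protein induced by low oxygen and other stresses (chromosome 15, 66929318 to 66969640), went the other way. It had 558, 498 and 544 normalized counts with Npm1 siRNA, against 435, 334 and 359 with control siRNA. The lowest Npm1 siRNA library lay above the highest control library. Ndrg1 was 1.42-fold higher by the authors' deposited table (log2 0.50, 95% interval 0.21 to 0.79, adjusted p = 0.0217), and its ratio stayed between 0.43 and 0.62 when each library was left out in turn.

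The remaining targets did not pass. Bnip3, a mitochondrial protein of mitophagy, had 95.1, 156 and 130 normalized counts with Npm1 siRNA, against 86.6, 114 and 131 with control siRNA (log2 0.20 in the authors' deposited table). Ddit4, an inhibitor of the growth kinase mTORC1, had 439, 503 and 669 with Npm1 siRNA, against 561, 602 and 487 with control siRNA (log2 -0.04 in the authors' deposited table). Ankrd37, an ankyrin-repeat protein, had 41.4, 54.5 and 30.4 with Npm1 siRNA, against 67.4, 28.7 and 45.5 with control siRNA (log2 -0.16 in the authors' deposited table). The groups of all 3 overlapped widely, and the ratio of Bnip3 was 0.03 without library b of Npm1 siRNA and 0.37 without library a of Npm1 siRNA. Ero1a, an oxidase of the endoplasmic reticulum, had no row under that symbol. The row Ero1l, its older symbol per the RefSeq gene table, had 1916, 1824 and 1695 with Npm1 siRNA, against 1982, 1909 and 2191 with control siRNA (log2 -0.16 in the authors' deposited table, with adjusted p = 0.336).

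Car9, the cell-surface carbonic anhydrase widely used as a marker of hypoxia, and Adm, the vasodilator peptide adrenomedullin, were below the minimum mean and were not tested. Car9 had 0, 13 and 2 reads in libraries a, b and c with Npm1 siRNA, and 0 in each control library. Set against a floor of 3 reads for the control group, 15 reads against 0 came to a 4.86-fold higher scaled count. The floor covers counting error in the control group only. The 15 reads were taken as exact and 13 of them came from 1 library, so 4.86 is no lower bound. Adm had 0, 2 and 7 reads with Npm1 siRNA, against 0, 2 and 5 with control siRNA. Both transcripts were close to the limit of detection.

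**Figure D5:**
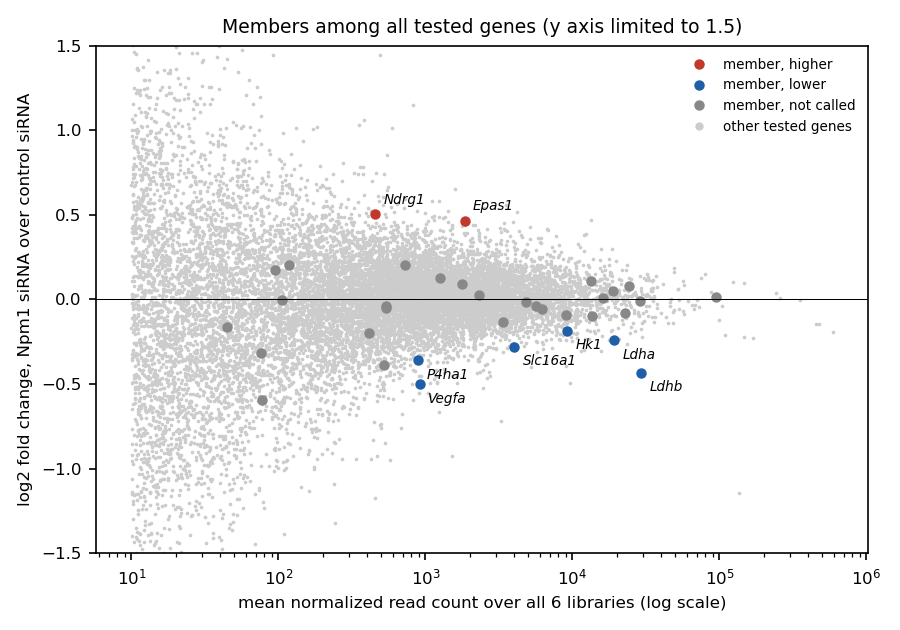
Mean normalized read count (log axis) against log2 fold change, Npm1 siRNA over control siRNA, for 14284 tested genes (light grey) and the 35 tested members (larger points; red higher, blue lower, dark grey not called). The called members are labelled and have means of at least 400; 109 other genes lie beyond the limits of 1.5 on the vertical axis.

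Genes of neighbouring pathways, outside the 38, were counted in the same way, beside 4.30% called of all tested genes. Of 18 tested isozymes and carriers that complete glycolysis and gluconeogenesis, 0 were called, with a median log2 fold change of -0.11, and 4 had an unadjusted p under 0.05. Tigar, a phosphatase that lowers the same sugar bisphosphate, was at 0.15 in the authors' deposited table (adjusted p = 0.252). Of 16 genes of the pentose phosphate pathway and glycogen metabolism, 2 (12.5%) were called, Taldo1 higher and Pgm2 lower. Taldo1, the transaldolase of the non-oxidative pentose phosphate branch, had a log2 fold change of 0.41 in the authors' deposited table (adjusted p = 1.79e-06). Pgm2, which acts on sugar phosphates, had 248, 352 and 324 normalized counts with Npm1 siRNA, against 446, 439 and 497 with control siRNA. Its groups did not overlap (log2 -0.58 in the authors' deposited table, adjusted p = 0.0165). Of 30 other hypoxia-inducible genes tested, 1 (3.33%) was called, and the median was -0.0046, with 15 positive and 15 negative. The gene called higher was Kdm3a, a histone demethylase induced by HIF (log2 0.32 in the authors' deposited table, adjusted p = 6.17e-05).

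Within the groups, some libraries stood low or high for many members at once. Over 18 members with recovered counts and a mean of at least 10, library b of control siRNA was the lowest of its group in 12 and the highest in 1. Among Npm1 siRNA libraries, a was the lowest in 9 and c the highest in 9. The part of these libraries in the results is given by the ratios without each of them. For the recovered members that were called, the groups did not overlap, so leaving out 1 library could not change the sign. The ratios ranged from -0.57 to -0.42 for Vegfa and from -0.40 to -0.33 for P4ha1. Pfkfb4, Eno2, Egln1, Ankrd37 and Ddit4, none of them called, changed sign when 1 library was left out. For Ldha, Ldhb and Hk1 the means are above 5000, so no value per library is given.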

How the data were processed

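Polyadenylated RNA of 6 samples, 3 per group by their titles, was sequenced from 1 end after stranded library preparation, per the labels' protocols. The submitters' processing notes name FastQC, Trimmomatic 0.36, STAR and DESeq2 and the build GRCm38 (mm10); how reads were counted, the use of strand and the annotation were not given in the sources used here. The values analysed are the authors' deposited table of 1 comparison: per the file headers, a mean normalized count (a signal value, pooled over libraries), a log2 fold change and an unadjusted p-value. The direction was read from Npm1, whose deposited log2 fold change is negative.

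The authors' p-values were adjusted by Benjamini-Hochberg over the 14284 genes with a mean of at least 10 (scipy 1.17.1), and calls were made at 0.05. Standard errors are the log2 fold change over the normal quantile of its p. The members, roles and lists were chosen with earlier results of these data known. All 38 members are accounted for; called members are given in full, and of each other list the called genes or else 2 by abundance. Pdha1, Pdk2, Pdk4, Vhl and Hif1an were named after their values were seen.

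Deposited means carry 15 digits. Means of genes with 1 read in 1 library gave 6 scaling factors between 0.923 and 1.06. These steps were read from the 1314 genes whose mean was below 0.19, so their falling on the steps is no check. The 3 libraries where such a gene had a negative deposited ratio were taken as control siRNA, so this grouping rests on the authors' own fold changes. Whole read counts were then sought that gave the deposited mean to its last digit and, in a negative binomial fit, the deposited fold change. A solution was kept where fewer than 0.001 chance solutions were expected. For Car9 and Adm, with means under 10, the fold change was not used, and a single combination that gave the mean was enough. Of 100 genes with a mean of 10 to 20, all 100 had 1 solution, and its fold change matched within 1e-05. The recovery was also run on simulated counts, with fold changes made by the same formula that it inverts, so that run is no separate check. The total depth per library is unknown, and no count model was refitted. Near copies were found with blastn 2.17.0 on GENCODE transcripts; lengths and coordinates are GENCODE's for GRCm38, matched for 36 of 38 members. Promoter windows are from RefSeq, matched for 35 members.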

Additional observations from a re-analysis of the deposited data

How the results depend on the processing

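No paired analysis was possible because the table holds no values per library, and the recovered counts carry no replicate number; another normalization or count model was not run for the same reason. In place of 2 members higher and 6 lower, Benjamini-Yekutieli adjustment gave 1 and 2 (Epas1, Vegfa and Slc16a1), a test against a fold of 1.2 gave 0 and 0, and no filter on low means gave 3 lower. Over all tested genes, 318 higher and 296 lower became 121 and 109 with Benjamini-Yekutieli adjustment and 6 and 11 against a fold of 1.2. For the other genes of the pathway, 3 higher and 2 lower became 0 and 0 against a fold of 1.2, and 1 lower with Benjamini-Yekutieli adjustment. Subtracting a trend on length and GC content left 4 members lower. Recentring on the median of all tested genes moved every fold change slightly and left 2 members higher and 6 lower. Of the other settings, only the trend on length and GC content alters the fold changes themselves. No called member reversed under recentring or the trend. With Ero1l counted as Ero1a, an alternative chosen after seeing the data, the counts of members called were 2 higher and 6 lower. The library values and those without each library were also added after seeing the data, and carry no test. The longest transcript in place of joined exons gave Ldhb a share of 68.0% in place of 76.3% of the lactate dehydrogenases. The implied standard errors of the tested members were 0.05 to 0.46, so changes in weakly expressed members such as Ankrd37 were not detectable unless large.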
